A study of Mus musculus with 12 samples.

Results

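The enzymes described here remove peroxides and other reactive compounds with glutathione or thioredoxin. They were taken by symbol: the glutathione transferases (Gsta, Gstm, Gstp, Gstt, Gsto, Gstk, Gstz and Mgst), the glutathione peroxidases (Gpx), the peroxiredoxins (Prdx), the thioredoxin reductases (Txnrd), the glutaredoxins (*Glrx*), and *Txn1*, *Txn2*, *Sod1*, *Sod2*, *Sod3*, *Cat*, *Gclc*, *Gclm*, *Gss*, *Gsr*, *Nqo1*, *Hmox1* and *Nfe2l2*. The array measures 59 such genes, of 29608 in all, with 91 probes on 118 spots. The question was whether *Mgst3*, which is in the list and is low in Fn14koMRL mice, stood alone among them. *Mgst3* was chosen by its low signal in Fn14koMRL, so its levels there are given as a description with no test, and counts are over the other members.

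Total RNA of the hippocampus of 12 adult female mice, about 12 weeks old and untreated, was hybridized to 6 Agilent arrays with Cy3 and Cy5. There were 3 strains with 4 mice each. MRL/lpr mice lack functional *Fas* through the lpr allele and develop a lupus-like disease with neuropsychiatric signs. Fn14koMRL mice are lpr as well and lack *Tnfrsf12a*, the gene of Fn14, through which the cytokine TWEAK acts. They were littermates of the MRL/lpr mice from backcross generation 8. MRL/MpJ, also called MRL/+, is the related strain without lpr and was bought from another breeder. Each array held 2 mice of the same strain, odd replicates in Cy3 and even replicates in Cy5. A strain had a slide of its own, so that slide, and for MRL/MpJ breeder, cannot be told apart from strain.

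A level is the background-subtracted signal of a gene divided by the median of its channel. Spots with a foreground at least 2 times background in all 12 samples gave 8864 genes, among them 33 of the 59 members, and the other 26 members are described from an analysis with no filter. The array of MRL/lpr replicates 3 and 4 was weak: its median ratio of foreground to background was 1.93 in Cy3 and 1.73 in Cy5, while the ratios of the 10 remaining samples were 4.43 to 12.6. Its mice both lay above all 10 other samples for 31.1% of the 8864 genes and below them for 30.9%. MRL/MpJ replicates 2 and 4, both in Cy5, lay above all others for 18.3% of genes and below for 11.7%. The 1 probe of *Tnfrsf12a* gave levels of 0.151 to 0.189 in Fn14koMRL, 0.241 to 0.439 in MRL/lpr and 0.283 to 0.629 in MRL/MpJ. Fn14koMRL did not overlap the other strains, with an adjusted p of 0.0800 (limma, no filter), and whether the probe lies in the deleted part is not given in the sources used here. The labels give the hippocampus as tissue, although the free descriptions mention the cortex. *Prox1*, which marks dentate granule cells, had levels of 0.157 to 1.60 in MRL/lpr, 0.01 (the floor) to 0.0237 in Fn14koMRL and 0.0188 to 0.125 in MRL/MpJ. The summed level of 12 hippocampal neuron markers was 25.2 to 35.8, 20.3 to 30.3 and 34.1 to 84.6 in the same order, of which *Nrgn* alone made 4.12 to 17.7, 13.7 to 20.7 and 26.4 to 75.9. Of the 7 such markers tested, 3 were called higher in MRL/lpr than in Fn14koMRL (median log2 difference 1.19) and 3 higher and 1, *Nrgn*, lower than in MRL/MpJ (median 1.48), where the medians of all genes were 0.03 and -0.01. That of 9 striatal markers was 3.88 to 5.62, 9.19 to 25.2 and 5.42 to 8.85, and that of 12 choroid plexus markers was 12.03 to 57.38, 7.111 to 12.17 and 8.694 to 10.03. Of all marker genes, *Ppp1r1b* of the striatal list was the only 1 called in Fn14koMRL against the mean of the others (1.56, limma adjusted p = 0.0386). Between MRL/lpr and Fn14koMRL, the choroid plexus marker *Ttr* (3.55) and the astrocyte marker *Gfap* (1.39) were also called higher, and *Fgfr3* (-1.63), *P2ry12* of microglia (-1.07) and *Ppp1r1b* (-1.85) lower, with limma adjusted p from 0.0202 to 0.0454. Between MRL/lpr and MRL/MpJ, 1 marker each of astrocytes, oligodendrocytes and choroid plexus was called higher and 2 of microglia lower. The part of these differences in the results below was not tested, and in whole tissue fewer cells of a type and less RNA per cell cannot be told apart.

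Glutathione is made by the glutamate-cysteine ligase (*Gclc* and *Gclm*) and glutathione synthetase (*Gss*), and its oxidised form is reduced by *Gsr*. Glutathione transferases couple it to electrophiles, and glutathione peroxidases use it against peroxides. Peroxiredoxins do the same with electrons from thioredoxin, which thioredoxin reductases renew, while superoxide dismutases turn superoxide into hydrogen peroxide and catalase breaks that down. The transcription factor NRF2 (*Nfe2l2*) drives many of these genes through the antioxidant response element. *Mgst3* is a microsomal enzyme with transferase and peroxidase activity that also conjugates leukotriene A4 with glutathione, and *Cat* is the peroxisomal catalase.

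RefSeq promoters (GRCm38.p6, from 250 bases before to 50 after the gene's start) were matched for 51 of the 59 members. No promoter was matched for *Gclc*, *Gsr*, *Gsta4*, *Gstt2*, *Hmox1*, *Prdx6*, *Prdx6b* and *Sod3*, which were not searched. They are shown because the NRF2 element is what many of these genes are known to share. Some genes have several promoters, with 69 for the 51 members and 32851 for all 27025 genes, and a gene was counted if any of them held the motif. The core of the element, TGACNNNGC on either strand, was held by 17.6% of the matched members and 14.0% of all genes. The GC box, GGGCGG on either strand, was held by 66.7% of the matched members and 38.2% of all genes. The 250 bases before the start of *Mgst3* (chr1:167393842-167394091, minus strand) and of *Cat* (chr2:103485154-103485403, minus strand) follow, 5′ to 3′ on the gene's strand, with GC boxes in capitals. Neither promoter holds the core of the antioxidant response element.
Mgst3: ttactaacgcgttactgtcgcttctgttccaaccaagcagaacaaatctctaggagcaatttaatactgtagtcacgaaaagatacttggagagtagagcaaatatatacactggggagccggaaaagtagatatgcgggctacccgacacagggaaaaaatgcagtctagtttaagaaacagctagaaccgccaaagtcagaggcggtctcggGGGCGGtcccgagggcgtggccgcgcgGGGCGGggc
Cat: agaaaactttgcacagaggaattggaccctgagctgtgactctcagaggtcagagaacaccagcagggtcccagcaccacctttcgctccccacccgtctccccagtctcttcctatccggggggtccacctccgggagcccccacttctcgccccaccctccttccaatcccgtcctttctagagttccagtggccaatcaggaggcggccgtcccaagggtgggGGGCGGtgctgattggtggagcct

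The core was found in 9 members, namely *Gclm*, *Gsta3*, *Gstm5*, *Gstm7*, *Mgst1*, *Nfe2l2*, *Prdx1*, *Sod1* and *Txnrd1*, between 34 and 240 bases before the start. The 30 bases around it are given for 5 of them whose levels are described below, with the core in capitals.
Nfe2l2 (chr2:75704884-75704913, minus strand): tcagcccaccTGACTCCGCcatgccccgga
Gclm (chr3:122245413-122245442, plus strand): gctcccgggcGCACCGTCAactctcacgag
Prdx1 (chr4:116685456-116685485, plus strand): cagggaaagcGCTGAGTCAtcccccgtagg
Gstm5 (chr3:107895802-107895831, plus strand): caccgcccacTGACCACGCggagggcgggt
Mgst1 (chr6:138140461-138140490, plus strand): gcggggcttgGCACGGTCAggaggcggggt

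*Mgst3* was lowest in Fn14koMRL, intermediate in MRL/lpr and highest in MRL/MpJ. Its level was 0.248, 0.286, 0.0278 and 0.0745 in Fn14koMRL replicates 1 to 4. In MRL/lpr it was 0.173, 0.611, 0.849 and 0.505. In MRL/MpJ it was 1.24, 2.66, 1.54 and 1.99. All Fn14koMRL mice lay below all MRL/MpJ mice, whereas MRL/lpr replicate 1 lay within the Fn14koMRL range. The means were 0.159 ± 0.127 (SD, n = 4) in Fn14koMRL, 0.535 ± 0.281 in MRL/lpr and 1.86 ± 0.615 in MRL/MpJ.

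Against the mean of the other strains the log2 difference of *Mgst3* in Fn14koMRL was -3.04, and 35 of the 8864 genes, itself included, were as low or lower. Against MRL/MpJ it was -4.02, the lowest value of all genes tested. No other member was as low in either comparison. Fn14koMRL replicates 3 and 4, which shared an array, gave the lowest values, and without that array the differences were -1.77 and -2.74. Within Cy3 alone they were -3.13 and -4.06, and within Cy5 alone -2.95 and -3.98.

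MRL/lpr against MRL/MpJ was not itself used to choose *Mgst3*, but the mice of both strains were those that Fn14koMRL was compared with. The values of this comparison are therefore not independent of the choice. The highest MRL/lpr level was under the lowest of MRL/MpJ, as for 11.6% of all genes tested. The log2 difference of *Mgst3* was -1.95 (SE 0.67, 95% interval from -3.42 to -0.48), and it did not pass the test, with an adjusted p of 0.0768 in limma. The exact two-sided permutation p was 0.0286, the smallest that 4 against 4 allows when the 2 mice of an array are taken as independent.

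Both *Mgst3* probes gave the same order of strain means. The first (mm9, chr1:169305625-169307435, minus strand) has coordinates that span an intron, and read 0.0164 to 0.286 in Fn14koMRL, 0.164 to 0.595 in MRL/lpr and 1.14 to 2.59 in MRL/MpJ. The second (chr1:169303928-169303987) read 0.0392 to 0.287, 0.182 to 1.18 and 1.35 to 2.73.

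**Figure D1:**
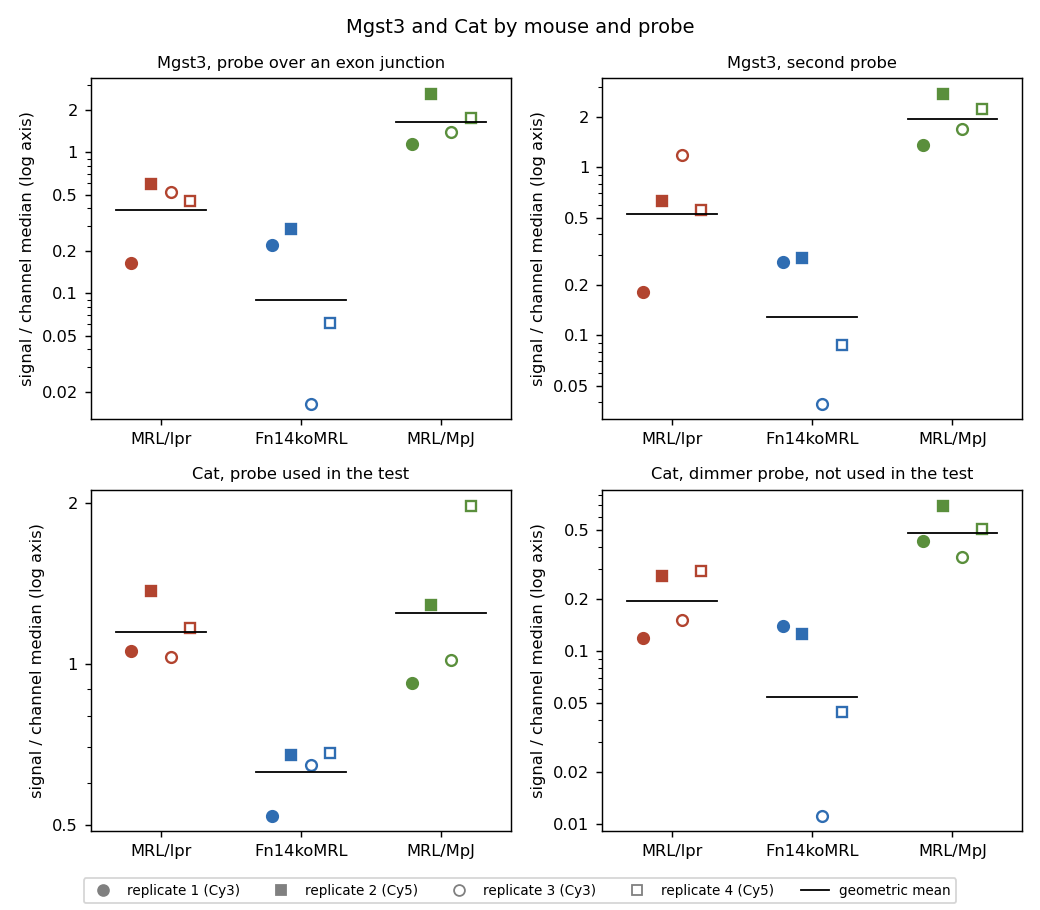
Level (signal over channel median, log axis) of each *Mgst3* and *Cat* probe in the 12 mice, by strain; circles are Cy3, squares Cy5, open symbols replicates 3 and 4, and lines geometric means. *Mgst3* rises from Fn14koMRL over MRL/lpr to MRL/MpJ on both probes, and the *Cat* probe used in the test reads 0.521 to 0.682 in Fn14koMRL against 0.921 to 1.98 in the other 8 mice.

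Of the other 32 members tested, *Cat* was the only 1 whose level in Fn14koMRL passed the test against the mean of the other strains. It fell, as did 0.722% of all genes tested, and none of the 32 rose (0.192% of all genes), while 8 of the 32 and 1689 of the 8864 genes had an unadjusted p under 0.05 in limma. Its level was 0.521, 0.677, 0.649 and 0.682 in Fn14koMRL. It was 1.06, 1.37, 1.03 and 1.17 in MRL/lpr, and 0.921, 1.29, 1.02 and 1.98 in MRL/MpJ. All 4 Fn14koMRL mice lay below the 8 others, as they did for 3.93% of all genes, and no member lay above them (1.32%). The log2 difference was -0.93 (SE 0.19, 95% interval from -1.34 to -0.52; limma adjusted p = 0.0447), and the exact two-sided permutation p was 0.00202, the smallest that 4 against 8 allows.

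*Cat* was also higher in MRL/lpr than in Fn14koMRL, by 0.87 on the log2 scale (SE 0.22; adjusted p = 0.0454 in limma), a call that 2.21% of all genes had. Against MRL/MpJ the Fn14koMRL value was -0.99 with an adjusted p of 0.0689, and MRL/lpr differed from MRL/MpJ by -0.11 (95% interval from -0.59 to 0.36). The calls and the permutation p of *Cat* rested on treating the 2 mice of an array as independent. With the array as a random block, where the correlation within arrays was 0.710, the adjusted p was 0.694 against the other strains and 0.282 between MRL/lpr and Fn14koMRL. Leaving out the array of Fn14koMRL 3 and 4 gave 0.616 and 0.375, and leaving out the weak array gave 0.00628 and 0.0259. The summed level of 8 red blood cell genes, cells that also hold catalase, was 25.5 to 86.7 in Fn14koMRL, 17.3 to 174 in MRL/lpr and 47.3 to 58.1 in MRL/MpJ, and the part of blood in the *Cat* values was not tested.

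The tested *Cat* probe lies at chr2:103294487-103294546 (mm9, minus strand). A second, dimmer probe (chr2:103297086-103300428) was not valid in all samples and did not enter the test. It read 0.14, 0.125, 0.0112 and 0.0447 in Fn14koMRL, 0.119, 0.272, 0.151 and 0.291 in MRL/lpr, and 0.432, 0.693, 0.35 and 0.511 in MRL/MpJ. On this probe Fn14koMRL overlapped MRL/lpr, all MRL/MpJ mice were above all others and Fn14koMRL replicates 3 and 4 were lowest. On the tested probe Fn14koMRL overlapped neither strain, and MRL/lpr and MRL/MpJ overlapped each other.

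**Figure D2:**
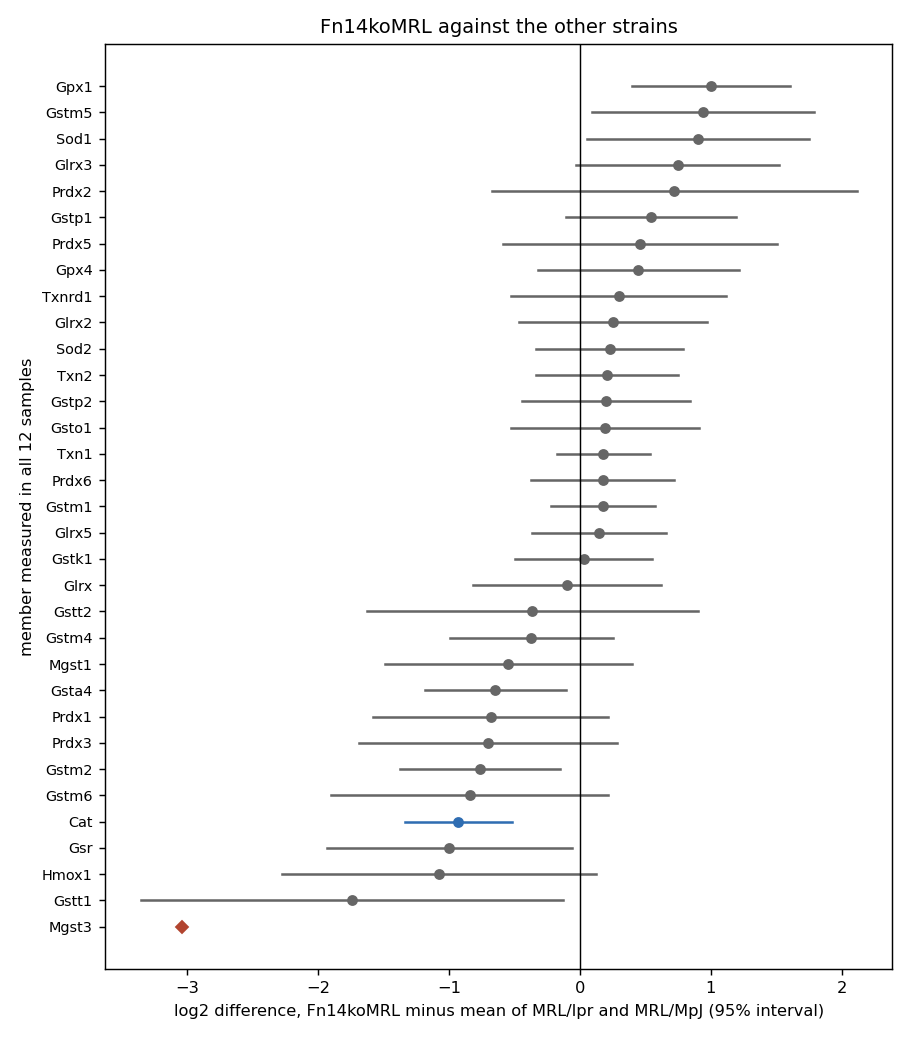
Log2 difference between Fn14koMRL and the mean of MRL/lpr and MRL/MpJ, with 95% intervals, for the 33 members measured in all 12 samples; the diamond is *Mgst3*, shown with no interval since it was chosen by this value. *Mgst3* lies at -3.04, below the others, which run from -1.74 (*Gstt1*) to 1.00 (*Gpx1*), and the interval of 24 of these 32 includes 0.

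The values of the members lay on both sides of 0. In Fn14koMRL against the mean of the others, 13 of the 32 had values below 0 and 19 above, with a median of 0.17 compared with -0.05 over all genes. Against MRL/MpJ alone none of the 32 passed the test, compared with 0.474% of all genes falling and 0.0451% rising, and 5 of the 32, and 1352 of all 8864 genes, had an unadjusted p under 0.05 (limma). *Cat*, *Gsto1*, *Gstt1* and *Prdx2* lay below all MRL/MpJ mice (14.1% of all genes did) and *Gstp1* above them (5.88%).

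Of the microsomal transferases, *Mgst1*, a broad enzyme of the endoplasmic reticulum and outer mitochondrial membrane, had levels of 0.256, 0.251, 0.210 and 0.494 in MRL/lpr. It had 0.266, 0.146, 0.126 and 0.168 in Fn14koMRL, and 0.0995, 0.519, 0.102 and 0.395 in MRL/MpJ. The strains overlapped, the Cy5 mice of MRL/MpJ lay above its Cy3 mice, and the log2 difference of Fn14koMRL from the others was -0.55 (95% interval from -1.49 to 0.40; limma adjusted p = 0.422). *Mgst2* was dim: 0.0149 to 0.167 in MRL/lpr, 0.0170 to 0.0254 in Fn14koMRL and 0.0180 to 0.122 in MRL/MpJ, well above background in 5 of 12 samples. Low values in all Fn14koMRL mice against MRL/MpJ were seen in *Mgst3* and not in *Mgst1* or *Mgst2*.

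The 21 cytosolic and mitochondrial transferases held 12 members measured in all samples. None passed the test in any of the 4 comparisons. Against the mean of the others, 6 had values below 0 and 6 above, from -1.74 (*Gstt1*) to 0.94 (*Gstm5*). *Gstm5*, a mu-class transferase of brain and testis, was at 10.3, 8.06, 9.89 and 8.70 in Fn14koMRL, 6.84, 5.61, 1.89 and 1.41 in MRL/lpr, and 7.15, 8.12, 6.68 and 6.93 in MRL/MpJ. MRL/lpr lay below Fn14koMRL in all mice, as did 10.3% of all genes, with a log2 difference of -1.53 (SE 0.45; limma adjusted p = 0.0700). *Gstm2* lay higher in all MRL/lpr mice (0.341 to 0.767) than in Fn14koMRL (0.211 to 0.243), by 1.08 (adjusted p = 0.0721), and *Gstm6* likewise (0.169 to 0.495 against 0.0744 to 0.165, by 1.39, adjusted p = 0.115 in limma). A higher level without overlap was seen for 11.2% of all genes. The *Gstm2* value rests on 1 of its 3 probes. The others, not valid in all samples, had log2 differences of 0.36 and 1.82, both with overlap between MRL/lpr and Fn14koMRL. The *Gstm6* value is the mean of 2 of its 5 probes, each of which overlapped between these strains when read alone. Its other probes had 0.27, 1.03 and 1.47.

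The *Gstt1* value rested on the weak array and on 1 of its probes. That probe read 1.27 and 2.04 in MRL/lpr replicates 3 and 4, compared with 0.0668 to 0.340 in the other 10 mice, whereas the other probe of the gene, which was not valid in all samples, read 0.184 and 0.280 there and 0.924 to 1.96 elsewhere. *Gstp1* and *Gstp2*, as well as the Gstm genes, are close in sequence, and their signals may be shared. Of the 2 *Gstm1* probes, 1 is placed by the files on chromosome 5 and the other on chromosome 3.

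Among the glutathione peroxidases, *Gpx1*, the main cytosolic enzyme, was at 4.04, 3.41, 3.89 and 3.32 in Fn14koMRL. It was at 2.72, 2.00, 1.43 and 1.5 in MRL/lpr, and at 3.39, 1.24, 2.65 and 0.950 in MRL/MpJ. Fn14koMRL lay above all MRL/lpr mice, as for 10.3% of all genes, but overlapped replicate 1 of MRL/MpJ, and the Cy5 mice of MRL/MpJ were its lowest. Against the mean of the others its log2 value was 1.00 (SE 0.28, 95% interval from 0.39 to 1.61), the highest of the members, and it did not pass the test (limma adjusted p = 0.119). The exact permutation p was 0.0121, with array mates taken as independent.

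*Gpx4*, which reduces lipid peroxides in membranes and guards against ferroptosis, was at 13.1, 11.4, 12.8 and 10.7 in Fn14koMRL. It was at 10.2, 8.60, 3.75 and 2.52 in MRL/lpr and at 11.6, 16.4, 13.9 and 16.0 in MRL/MpJ. No MRL/lpr mouse reached the level of a Fn14koMRL or MRL/MpJ mouse. MRL/lpr lay below Fn14koMRL for 10.3% of all genes and below MRL/MpJ for 11.6%. The log2 difference was -1.16 from Fn14koMRL (limma adjusted p = 0.0956) and -1.42 from MRL/MpJ (adjusted p = 0.0504), and in the 10 samples left without the weak array, on the spots they share, it was -0.44 (adjusted p = 0.0912) and -0.45 (adjusted p = 0.0602). The other 6 Gpx genes were not valid in all samples, and *Gpx5* was not well above background in any.

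Of the peroxiredoxins, 5 were measured in all samples and none passed the test. *Prdx2*, a cytosolic enzyme abundant in neurons and red blood cells, was at 7.02 and 5.93 in MRL/lpr replicates 1 and 2 and at 0.550 and 0.656 in replicates 3 and 4, at 6.34 to 6.52 in Fn14koMRL and at 7.07 to 8.60 in MRL/MpJ. Its log2 value of -1.97 for MRL/lpr against MRL/MpJ (limma adjusted p = 0.0901) came from the weak array. *Prdx1* went the other way there, with 4.16 and 6.65 in those mice and 0.931 to 1.5 in the other 10. *Prdx3*, the mitochondrial peroxiredoxin, was at 1.06, 0.943, 0.168 and 0.599 in Fn14koMRL and at 0.563 to 1.58 in the other strains, so that Fn14koMRL replicate 3 stood below all other mice.

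The heat map of members by mouse shows where single arrays stood apart. Of the 32 members, 8 lay above and 9 below all other samples in both mice of the weak array, as did 31.1% and 30.9% of all genes. In both Cy5 mice of MRL/MpJ 4 lay above and 6 below, as did 18.3% and 11.7% of all genes. In both mice of the second Fn14koMRL array none lay above and 1, *Gsr*, lay below, compared with 2.46% and 4.10% of all genes.

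**Figure D3:**
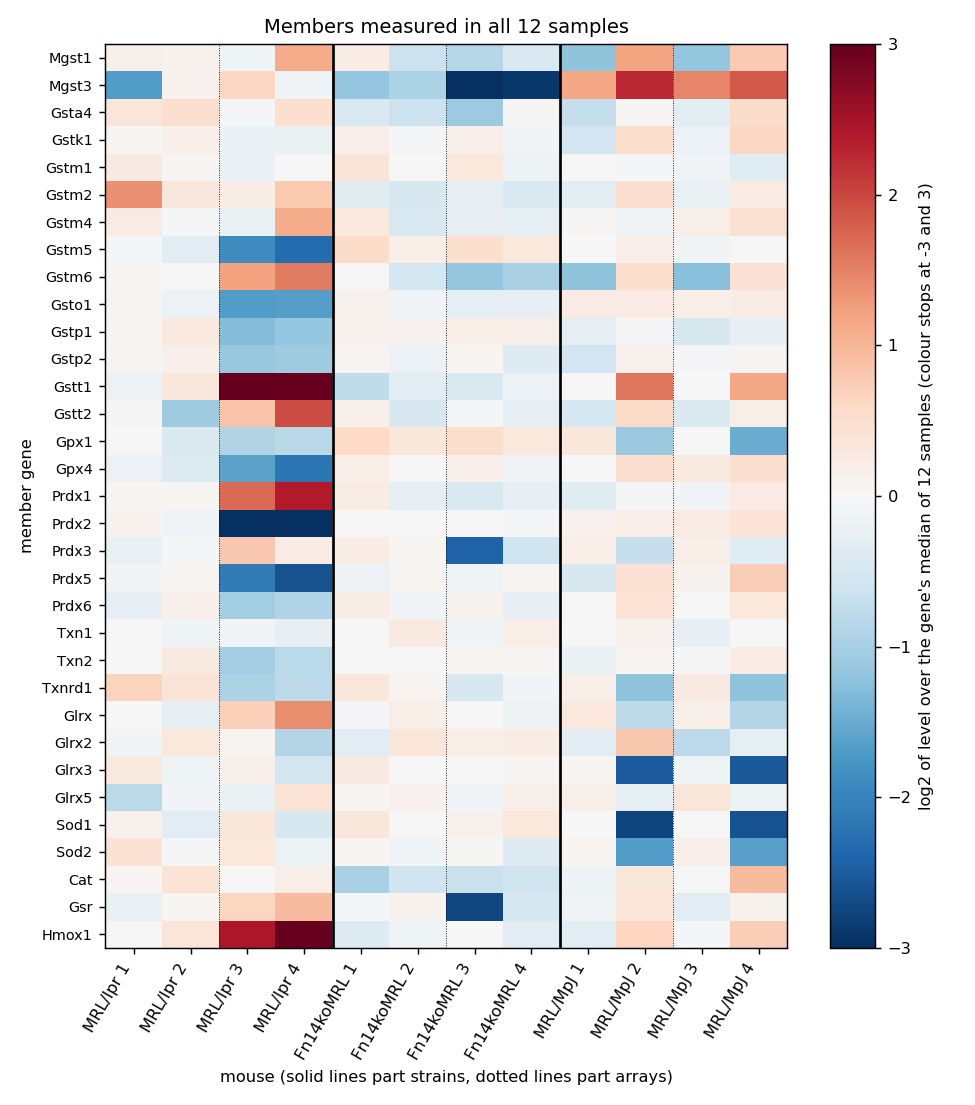
Log2 of each level over the gene's median of 12 samples, for the 33 members measured in all samples (rows) and the 12 mice (columns), with solid lines between strains and dotted lines between arrays. MRL/lpr 3 and 4 differ from MRL/lpr 1 and 2 in many rows. MRL/MpJ 2 and 4 are low for *Sod1*, *Sod2*, *Gpx1* and *Glrx3* (1 of its 2 probes). The *Mgst3* row is low in Fn14koMRL and high in MRL/MpJ.

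Superoxide dismutases showed the split of the MRL/MpJ mice by dye. *Sod1*, the cytosolic enzyme, was at 8.17 and 7.99 in the Cy3 mice of MRL/MpJ and at 1.19 and 1.33 in its Cy5 mice, compared with 8.80, 6.43, 10.3 and 5.83 in MRL/lpr and 10.2, 7.95, 8.81 and 10 in Fn14koMRL. *Sod2*, the mitochondrial enzyme, was at 2.41 and 2.58 against 0.726 and 0.750, with 3.10, 2.25, 2.87 and 2.04 in MRL/lpr and 2.39, 2.19, 2.36 and 1.77 in Fn14koMRL. The log2 values of Fn14koMRL against MRL/MpJ, 1.53 for *Sod1* (limma adjusted p = 0.130) and 0.67 for *Sod2* (adjusted p = 0.3), did not pass the test. *Sod3*, the secreted enzyme, was not valid in all samples.

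None of the thioredoxins, their reductases and the glutaredoxins passed the test in any of the 4 comparisons. *Txn1*, the cytosolic thioredoxin, was at 1.4 to 1.68 in MRL/lpr, 1.58 to 2.01 in Fn14koMRL and 1.4 to 1.82 in MRL/MpJ, and its log2 value in Fn14koMRL against the others was 0.18 (95% interval from -0.18 to 0.53). Among the 3 members of this system and the 4 glutaredoxins measured in all samples, the values of this comparison ran from -0.10 (*Glrx*) to 0.75 (*Glrx3*). *Glrx3*, which has a role in iron-sulfur cluster supply, was at 0.263 and 0.261 in the Cy5 mice of MRL/MpJ and at 1.02 to 1.83 in the other 10. All *Glrx3* values given here rest on 1 of its 2 probes. The other, not valid in all samples, read 2.09, 2.56, 2.15 and 2.31 in MRL/MpJ, with no drop in Cy5. It read 1.88 to 2.37 in Fn14koMRL, and 0.179 and 0.142 in MRL/lpr replicates 3 and 4.

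The enzymes of glutathione synthesis did not share the low Fn14koMRL values of *Mgst3*. *Gclc*, the catalytic subunit of the rate-limiting ligase, was at 0.730, 0.738, 0.848 and 0.721 in Fn14koMRL. It was at 0.536, 0.705, 0.272 and 0.289 in MRL/lpr and at 0.841, 0.591, 0.839 and 0.623 in MRL/MpJ. MRL/lpr lay below Fn14koMRL, as for 10.3% of the 8864 filtered genes, which do not include *Gclc*. The log2 difference was -0.87 with no filter (limma adjusted p = 0.105), and the lowest mice were those of the weak array. Without that array it was -0.39 (limma adjusted p = 0.425). *Gclm*, its modifier subunit, was at 0.255, 0.205, 0.253 and 0.236 in Fn14koMRL, 0.306, 0.262, 0.123 and 0.279 in MRL/lpr, and 0.194, 0.407, 0.259 and 0.388 in MRL/MpJ. *Gss* was at 0.15, 0.0952, 0.165 and 0.118, at 0.222, 0.139, 0.201 and 0.417, and at 0.125, 0.182, 0.117 and 0.128 in the same order. Both overlapped between all strains. None of the 3 was valid in all samples, and in the analysis with no filter their values against the mean of the others were 0.48, -0.14 and -0.44, where the median of all genes was -1.19.

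*Gsr* was at 1.08, 1.21, 0.171 and 0.781 in Fn14koMRL, 0.970, 1.19, 1.78 and 2.18 in MRL/lpr, and 1.06, 1.47, 0.913 and 1.21 in MRL/MpJ. Its log2 value of -1.0 against the mean of the others (limma adjusted p = 0.244) came from the array of Fn14koMRL 3 and 4, on which *Mgst3* and the dimmer *Cat* probe were also lowest, and from the weak array, where it was highest. The high values on the weak array came from 1 of 2 probes, at 2.13 and 2.61 there and 0.0417 to 0.477 in the other mice. The other probe read 1.44 and 1.75 there, within the 0.3 to 2.7 of the other mice.

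*Nfe2l2* and its targets *Nqo1* and *Hmox1* were dim. *Nfe2l2* was at 0.550, 0.258, 0.459 and 0.257 in Fn14koMRL, 0.566, 0.250, 0.345 and 0.347 in MRL/lpr, and 0.255, 0.138, 0.257 and 0.131 in MRL/MpJ, with Cy3 above Cy5 in Fn14koMRL and MRL/MpJ. *Nqo1*, a quinone reductase, was at 0.136, 0.0975, 0.0872 and 0.118, at 0.155, 0.104, 0.0726 and 0.152, and at 0.0985, 0.236, 0.101 and 0.173 in the same order of strains, which overlapped. *Hmox1*, heme oxygenase 1, was at 0.104, 0.125, 0.139 and 0.110 in Fn14koMRL, 0.135, 0.176, 0.737 and 1.22 in MRL/lpr, and 0.110, 0.214, 0.134 and 0.227 in MRL/MpJ. The *Hmox1* values of 0.737 and 1.22 came from 1 of 2 probes, on the weak array.

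**Figure D4:**
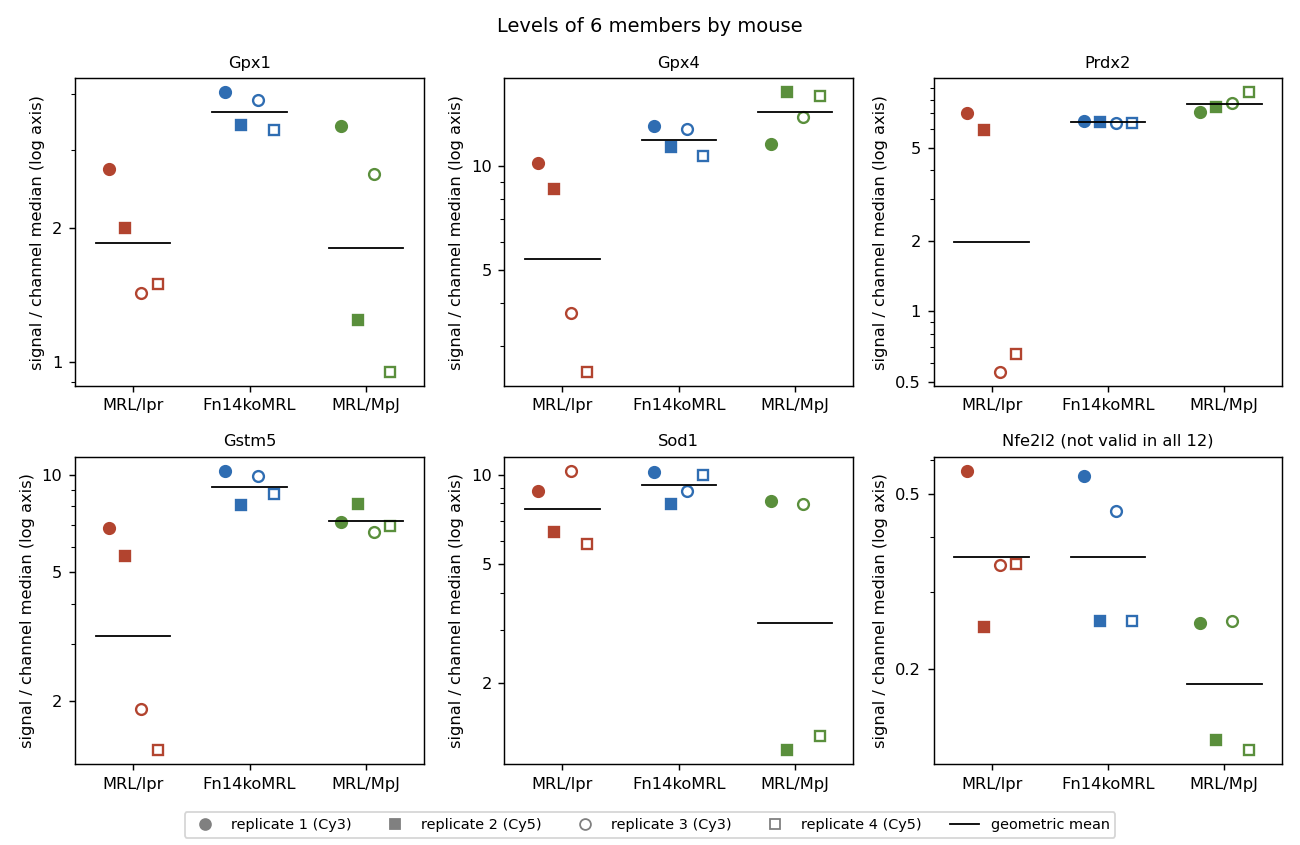
Level (signal over channel median, log axis) of 6 members in the 12 mice by strain; circles are Cy3, squares Cy5, open symbols replicates 3 and 4, and lines geometric means. MRL/lpr 3 and 4 are low for *Gpx4*, *Prdx2* and *Gstm5*, and the Cy5 mice of MRL/MpJ are low for *Gpx1*, *Sod1* and *Nfe2l2*. The mean of Fn14koMRL is not the lowest in any of these 6 panels. They are a choice of members, and Fn14koMRL had the lowest mean for others not shown, such as *Cat*, *Gsr* and *Gstm2*.

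Without the weak array, spots valid in the other 10 samples covered 17936 genes and 51 members besides *Mgst3*, and levels are relative to another set of spots. Against the mean of the others *Cat* fell (-0.96, SE 0.14, limma adjusted p = 0.00383), as did 5.53% of all genes, while *Gpx1*, *Gstm5*, *Nfe2l2* and *Txnrd3* rose, as did 4.88%. *Gstm5* was higher by 0.63 (adjusted p = 0.00578), *Gpx1* by 1.00 (adjusted p = 0.0437), *Nfe2l2* by 0.62 (adjusted p = 0.0170) and *Txnrd3*, a reductase best known from testis, by 0.66 (adjusted p = 0.0416, all in limma). Fn14koMRL lay above the other 6 mice for *Gstm5*, *Gpx1*, *Txnrd3* and *Gstm3*, as for 4.22% of all genes, and overlapped MRL/lpr for *Nfe2l2*. *Gstm3* was not called (limma adjusted p = 0.0517). Against MRL/MpJ alone *Gpx1*, *Gstm1*, *Gstm3*, *Gstm5*, *Gstp1*, *Nfe2l2* and *Sod1* rose (10% of all genes) and *Cat* fell (11.1%), *Nfe2l2* by 1.21 in log2 with an adjusted p of 0.00089 in limma. The 2 *Gstm1* probes differed in direction in the 12-sample fit, with 1.27 for that on chromosome 5 and -0.33 for that on chromosome 3. *Sod1* was at 3.25 and 4.12 in the Cy5 mice of MRL/MpJ and at 31.4 and 31.5 in its Cy3 mice. Of MRL/lpr against Fn14koMRL, *Cat*, *Gsta4* and *Gstm7* rose (4.09%) and *Gstm5* fell (5.03%). *Nfe2l2* was also higher in MRL/lpr than in MRL/MpJ, by 1.18 (limma adjusted p = 0.00133, 2 mice against 4, with overlap), with *Gsta4* (0.66, adjusted p = 0.0274) and *Gstp1* (0.62, adjusted p = 0.0218), and 6.11% of all genes were called so, while no member fell there (9.61% of all genes). In these fits MRL/lpr is 2 mice of a single array, and array mates count as independent. With the array as a random block on the same samples the estimated correlation within arrays was -0.265, below 0, and 11 members were called in the first comparison (23.4% of all genes), 13 against MRL/MpJ (35.7%), 7 between MRL/lpr and Fn14koMRL (15.9%) and 12 between MRL/lpr and MRL/MpJ (28.6%). On all 12 samples, where it was 0.710, the block left no member called in any comparison. *Mgst3* had -2.62 against the mean of the others in these samples, the lowest member again.

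In the comparisons of MRL/lpr with all 12 samples, *Cat* was the only 1 of the 32 members called between MRL/lpr and Fn14koMRL, and none of them fell (1.77% of all genes). None of the 32 members other than *Mgst3* was called between MRL/lpr and MRL/MpJ, where 3.46% of all genes rose and 5.71% fell, and 10 of the 32, and 3242 of all genes, had an unadjusted p under 0.05 in limma. *Gpx4*, *Prdx2* and *Gsto1* lay lower in all MRL/lpr mice, as did 11.6% of all genes, and no member lay higher in all (4.58%). The median coefficient of variation of the members was 42.6% in MRL/lpr, 13.2% in Fn14koMRL and 33.1% in MRL/MpJ, and that of all genes 51.4%, 15.8% and 27.5%.

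The 26 members that were not valid in all samples held 17 values below 0 and 9 above in Fn14koMRL against the mean of the others, with a median of -0.24, where the median over all genes was -1.19. None passed the test there, where 0.054% of all genes rose and 0.263% fell with no filter, and 3 of the 26, compared with 5445 of all 29608 genes, were at an unadjusted p under 0.05 in limma. Between MRL/lpr and Fn14koMRL, where the median of all genes was 1.34, *Prdx6b* had 3.26 (limma adjusted p = 0.0328) and *Gstz1* had -0.91 (adjusted p = 0.0476), while 5.37% of all genes were called higher and 1.46% lower with no filter. *Prdx6b* was well above background in 2 of 12 samples, and its levels were 0.01 (the floor, 1% of the channel median) in 3 Fn14koMRL mice and 0.0114 in replicate 4, and 0.0545, 0.0851, 0.0806 and 0.256 in MRL/lpr. *Gstz1* was at 1.36, 0.861, 1.42 and 0.715 in Fn14koMRL and at 0.823, 0.577, 0.577 and 0.346 in MRL/lpr, with overlap.

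Of 60 genes that supply NADPH, glutathione or thiols or belong to NRF2 regulation, 34 were tested. None was called between Fn14koMRL and the other strains, where 0.914% (both strains), 0.519% (MRL/MpJ) and 3.98% (MRL/lpr) of all genes were called, with 0 to 5 genes of a list at an unadjusted p under 0.05 in limma. The lowest adjusted p in the first of these comparisons were 0.145 for *Sesn1*, a sestrin (0.88), 0.216 for *Bach1*, a repressor at NRF2 elements (-1.62), and 0.277 for *Tkt*, transketolase (1.11). They were 0.320 for *P4hb* (0.54), 0.374 for *Ftl1* (0.58) and 0.397 for *Keap1* (0.41). In the list of glutathione supply and turnover they were 0.338 for *Hagh* (-0.34), 0.341 for *Slc1a2* (-0.59) and 0.345 for *Slc1a1* (-0.29). Between MRL/lpr and MRL/MpJ, *Nnt*, the mitochondrial transhydrogenase that makes NADPH, rose by 1.58 (adjusted p = 0.0351), while *Ggt7* (-2.07, adjusted p = 0.0450) and *Sqstm1*, the autophagy receptor p62 (-1.15, adjusted p = 0.0298, all in limma), fell, in a comparison that called 9.17% of all genes. These 3 were chosen after their values were seen.

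The pattern of *Mgst3* over strains was compared with that of the 348 genes whose Fn14koMRL mice all lay below the other 8. *Mgst3* is not among these, since its MRL/lpr replicate 1 lay within the Fn14koMRL range, and genes with such an overlap were not searched. The closest were *D14Ertd670e*, *Syt10*, *Rnu1b6*, *Mark3* and *4930481A15Rik*, chosen as the nearest by rule, with root mean square differences of 0.58 to 0.81 in the 3 centred log2 strain means. *Syt10*, a synaptotagmin, was at 0.215 to 0.423 in Fn14koMRL, 0.807 to 1.88 in MRL/lpr and 0.912 to 3.39 in MRL/MpJ. *Mark3*, a kinase, was at 0.247, 0.248, 0.0120 and 0.0959 in Fn14koMRL, which is the split by array seen for *Mgst3*. *Cat* was the only member with all Fn14koMRL mice below the other 8, on its tested probe. On that probe it did not differ between MRL/lpr and MRL/MpJ beyond its spread. On its dimmer probe all MRL/lpr mice (0.119 to 0.291) lay below all MRL/MpJ mice (0.35 to 0.693), and Fn14koMRL overlapped MRL/lpr.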

How the data were processed

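Hippocampal RNA of 12 mice was measured on 6 two-colour Agilent arrays with 60-base probes. The deposited scanner output of Agilent Feature Extraction gives each spot's intensity in either dye, unlogged and before any normalization by the authors. The mean foreground, median local background and outlier flags were used. Following the steps of the study's methods, signals were reduced by their local background and scaled to the channel's median over 10877 spots, which were those with no outlier flag and at least 2 times background in all 12 samples. Unlogged values were averaged over the spots of a probe, then over a gene's probes. Members with no spot kept were taken from an analysis with no filter, with signals under 1% of the channel median set to 1% of it. Probe positions are in mm9 as the files give them.

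The log2 levels entered limma 3.58.1 (R 4.3.3; lmFit, eBayes with an intensity trend). All 12 samples entered 1 fit with dye as covariate, Benjamini-Hochberg adjustment over 8864 genes and a threshold of 0.05. Exact permutation tests were two-sided and shuffled single mice, so they too took the 2 mice of an array as independent. The comparisons were Fn14koMRL against the mean of the other strains, Fn14koMRL against MRL/MpJ, MRL/lpr against Fn14koMRL and MRL/lpr against MRL/MpJ, and they share samples. Named sample by sample were *Mgst3*, every member past the threshold in the filtered fit or with Fn14koMRL apart from the 8 others, the other Mgst genes and *Nfe2l2*, *Nqo1*, *Hmox1*, *Gclc*, *Gclm*, *Gss*, *Gsr*, *Cat*, *Sod1*, *Sod2*, *Gpx1* and *Gpx4*; of each related list up to 3 genes with the lowest adjusted p, and the 5 genes most like *Mgst3*. *Gstm5*, *Gstm2*, *Gstp1*, *Gstt1*, *Prdx1*, *Prdx2*, *Prdx3* and *Glrx3* were added after their values were seen. The members and lists were chosen with earlier results of these data known. Alternatives changed the filter, background, signal, normalization, dye term, blocks, weights, probes, test and samples, and the fit was tested on simulated data. The simulated samples were independent with 1 spread per gene, so they could not test the effect of shared arrays or of the weak array. No protein sequences were used here. No spot was saturated, and precision is limited by the number of arrays. The mice were separate animals, but the 2 mice of an array share its errors.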

Additional observations from a re-analysis of the deposited data

Results flagged for a closer look

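In 3 of 69 groups of 4 mice tested, the most extreme mouse lay far from the others by Dixon's criterion at the 95% level (gap over range), and chance gives about 1 such group in 20. For *Mgst1*, MRL/lpr replicate 4 was at 0.494 against 0.210 to 0.256 in the other 3 mice (gap over range 0.838), and that mouse is on the weak array. For *Gclc*, Fn14koMRL replicate 3 was at 0.848 against 0.721 to 0.738 (0.866). For *Gss*, MRL/MpJ replicate 2 was at 0.182 against 0.117 to 0.128 (0.831). The cause of these values was not tested.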

How the results depend on the processing

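*Mgst3* stayed lower in Fn14koMRL under every alternative run, from -3.61 to -1.77 in log2 against the mean of the others and from -4.59 to -2.74 against MRL/MpJ; the smallest came without the array of Fn14koMRL 3 and 4. The counts of members called, *Mgst3* apart, are given with the share of all genes called in parentheses, which changed as well. Against the mean of the others (1 called, 0.914%), 5 were called without the weak array with spots valid in 10 samples (10.4%), 11 with the array block added to that (23.4%), 4 without it on the same spots (12.2%), 7 with array weights (24.1%), and 0 with quantile normalization, no dye term, array block, replicate block, either dye alone or the array of Fn14koMRL 3 and 4 left out (0 to 0.519%); leaving out single mice gave 0 to 2. For Fn14koMRL against MRL/MpJ (0 called), the counts were 1 with no filter (0.145%), 8 and 6 without the weak array (21.1% and 28.1%), 13 with the block added (35.7%), 8 with array weights (38.5%), 10 with only the 2 groups fitted (19.8%) and 4 by the methods' t-test before adjustment (16.8%); leave-one-out gave 0 to 1. For MRL/lpr against Fn14koMRL (1 called), they were 3 with no filter, normexp or the processed signal (5.17% to 7.48%), 4 and 2 without the weak array (9.12% and 7.22%), 7 with the block added (15.9%), 4 with array weights (10.2%), 5 (13%) and 0 by the methods' t-test before and after adjustment, and 0 with quantile normalization, no dye term, array block, replicate block, the 2 groups alone, probes on their own, either dye alone or the second Fn14koMRL array left out (0 to 3.9%); leave-one-out gave 0 to 16, with 16 without MRL/lpr replicate 2 (48.5%) and 11 without replicate 1 (40.1%). For MRL/lpr against MRL/MpJ (0 called), they were 3 and 1 without the weak array (15.7% and 18.1%), 12 with the block added (28.6%), 3 with the processed signal (13.5%) and 1 each with loess, no dye term, array weights, the unadjusted t-test and probes on their own (8.44% to 16.4%); leave-one-out gave 0 to 10, with 10 without MRL/lpr replicate 1 (37.6%) and 8 without replicate 2 (39.1%). Calls of related genes over the 4 comparisons (3) were 18 and 15 without the weak array, 40 with the block added, 17 with array weights, 6 with probes on their own, 1 with quantile normalization or the replicate block and 0 with the array block, either dye alone or the second Fn14koMRL array left out; leave-one-out gave 0 to 32, with 30 and 32 without MRL/lpr replicates 1 and 2. *Mgst3* between MRL/lpr and MRL/MpJ passed without the weak array on the same spots, with the block added on 10 samples and with array weights, and by the t-test before adjustment, and in no leave-one-out fit (adjusted p from 0.0095 to 0.544 over all alternatives). *Cat* passed against the mean of the others in 8 of 15 alternatives and 3 of 12 leave-one-out fits. Its near-zero difference between MRL/lpr and MRL/MpJ turned to 0.10 in Cy3 alone, and ranged from -0.201 to 0.0587 in leave-one-out fits, above 0 without MRL/MpJ replicate 4. Quantile normalization moved the median of all genes between MRL/lpr and Fn14koMRL from 0.03 to -0.13. Leaving out the second Fn14koMRL array, leaving out the weak array on the same spots, the block on 10 samples, and the single dyes were chosen after seeing the data, and the causes were not tested. The replicate numbers did not pair the mice: correlations of same-numbered deviations ran from -0.395 to 0.503 and 3 of 12 mice matched best with their own number. Depth is limited by signal over background, which was under 2 on the weak array.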
